A study of Mus musculus with 60 samples.

Results

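The trimmed ends of lamina-associated domains are stretches that lay in a lamin B1 domain of wild-type (WT) mouse hippocampus and outside the shortened domain of R6/1 hippocampus. Their 2259 bins of 37 kb (83.6 Mb) were chosen by comparing the 2 deposited domain lists. A bin qualified when it lay in an autosomal WT domain that overlapped an R6/1 domain, was itself outside every R6/1 domain, and had an R6/1 domain of that WT domain on 1 side only. The WT list covers 25540 of the 66831 autosomal bins, so the trimmed ends make up 8.85% of 944.9 Mb of WT domain length and 54.3% of the 4160 bins found in a domain in WT only. The extent and number of these ends follow from the choice and are given as a description.

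The study set hippocampus of R6/1 mice beside that of WT mice, all aged 30 weeks and of a mixed CBA and C57BL/6 background. The R6/1 line models Huntington's disease through a transgene taken from the start of human huntingtin with a lengthened CAG repeat. Lamin B1 chromatin immunoprecipitation and its input were sequenced for each genotype in 3 replicates that each pooled 5 mice, but the deposited domains form 1 list per genotype and have no replicate spread. Messenger RNA was sequenced in 9 WT and 9 R6/1 libraries, described as independent biological replicates. RNA played no part in choosing the bins.

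Lamina-associated domains are long stretches of chromosome that touch the nuclear lamina, the mesh of lamin proteins under the inner nuclear membrane. They are known to be poor in genes, rich in A and T bases and mostly silent, and their borders often coincide with active promoters facing away from the domain. Some domains are shared by nearly all cell types, while others hold genes of a tissue and leave the lamina when those genes become active.

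The RNA libraries held between 12299434 and 16736544 reads on genes. The dentate granule markers fell at 6 of 6 genes, and their summed level did not overlap between genotypes (71.3 to 111.3 RPKM in WT, 42.3 to 53.6 RPKM in R6/1; RPKM is reads per kilobase of transcript, scaled for depth). Choroid plexus markers varied among libraries of both genotypes, from 25.4 to 1072.1 RPKM in WT and from 38.7 to 1738.3 RPKM in R6/1. Markers of other cell types fell too: 4 of 6 for CA1 neurons (1 rose), 4 of 5 for CA3 neurons and 4 of 5 for oligodendrocytes. Of the microglia markers 2 of 5 fell, and of the endothelial markers 1 of 4. In bulk tissue, fewer cells of a type and less RNA per cell cannot be told apart. No gene of the lamina and tethering list started in a trimmed end, and of its 26 genes 11 rose and 1 fell in R6/1 (limma, adjusted p under 0.05; 24.8% of all tested genes rose and 23.5% fell). With libraries scaled by their own total of reads, the list's counts were 17 and 0 (35.4% and 17.5% of all genes then tested). Without the libraries rich in choroid plexus markers, the counts were 6 and 1 (16.3% and 17.0% of all genes then tested). In that fit 5 of 6 dentate granule markers fell. Lmnb1, which encodes lamin B1, had medians of 2.63 and 2.79 RPKM and did not pass the test (limma adjusted p = 0.141).

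Promoters inside trimmed ends were of very different kinds. The 6 below belong to genes the RNA results name, taken as the 3 with the most and the 3 with the fewest CpG dinucleotides among 15 promoters found; Dlx6os1, with 5 CpG like Lurap1l, is not shown. The sequences are RefSeq promoters (assembly GRCm38.p6, 250 bases before to 50 after the start) that were found letter for letter in build NCBIM37, which gives the positions, and each CpG is in capitals. The promoter of Tet2 (chr3:133207305-133207604, minus strand) holds 57 CpG, that of Atp2b1 (chr10:98377536-98377835, plus strand) 45 and that of Sp4 (chr12:119539864-119540163, minus strand) 42.
Tet2: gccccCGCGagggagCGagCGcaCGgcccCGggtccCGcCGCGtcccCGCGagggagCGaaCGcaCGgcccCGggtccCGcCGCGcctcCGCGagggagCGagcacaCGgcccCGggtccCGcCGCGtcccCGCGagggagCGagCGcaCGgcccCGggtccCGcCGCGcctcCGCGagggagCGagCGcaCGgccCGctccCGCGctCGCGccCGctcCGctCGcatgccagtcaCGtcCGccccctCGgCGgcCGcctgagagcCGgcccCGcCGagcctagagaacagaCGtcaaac
Atp2b1: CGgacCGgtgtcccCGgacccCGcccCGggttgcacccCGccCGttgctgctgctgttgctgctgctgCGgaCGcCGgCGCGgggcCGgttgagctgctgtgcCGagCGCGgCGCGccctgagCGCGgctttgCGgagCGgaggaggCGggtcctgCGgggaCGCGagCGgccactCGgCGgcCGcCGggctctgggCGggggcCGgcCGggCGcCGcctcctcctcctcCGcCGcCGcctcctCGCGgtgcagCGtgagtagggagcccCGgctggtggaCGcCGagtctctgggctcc
Sp4: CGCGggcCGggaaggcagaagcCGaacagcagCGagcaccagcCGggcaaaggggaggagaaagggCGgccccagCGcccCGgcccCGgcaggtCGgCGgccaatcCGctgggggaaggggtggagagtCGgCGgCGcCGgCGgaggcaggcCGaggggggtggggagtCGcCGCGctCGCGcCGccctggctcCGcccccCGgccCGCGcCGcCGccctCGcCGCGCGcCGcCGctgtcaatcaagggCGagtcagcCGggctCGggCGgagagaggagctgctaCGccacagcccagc
The promoter of Lurap1l (chr4:80556340-80556639, plus strand) holds 5 CpG, that of Vip (chr10:4707274-4707573, minus strand) 4 and that of Hapln1 (chr13:89679991-89680290, plus strand) 3.
Lurap1l: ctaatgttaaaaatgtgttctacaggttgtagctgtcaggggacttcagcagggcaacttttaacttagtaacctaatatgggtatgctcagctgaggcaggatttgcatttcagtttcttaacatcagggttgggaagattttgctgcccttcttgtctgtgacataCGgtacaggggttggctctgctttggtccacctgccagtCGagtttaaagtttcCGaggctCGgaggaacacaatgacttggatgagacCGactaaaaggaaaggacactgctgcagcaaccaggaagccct
Vip: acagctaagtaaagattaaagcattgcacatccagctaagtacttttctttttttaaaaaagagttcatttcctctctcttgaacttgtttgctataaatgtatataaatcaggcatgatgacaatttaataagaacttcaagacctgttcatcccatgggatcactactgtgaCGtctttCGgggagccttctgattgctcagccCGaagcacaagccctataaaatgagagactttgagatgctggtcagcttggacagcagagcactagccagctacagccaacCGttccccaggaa
Hapln1: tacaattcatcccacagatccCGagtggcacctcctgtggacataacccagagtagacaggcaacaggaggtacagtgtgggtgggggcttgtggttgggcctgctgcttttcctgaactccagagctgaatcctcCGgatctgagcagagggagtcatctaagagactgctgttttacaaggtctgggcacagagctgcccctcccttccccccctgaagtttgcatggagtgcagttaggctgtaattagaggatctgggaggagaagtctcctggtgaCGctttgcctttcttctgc
Tet2 and Sp4 are among the genes that rose in R6/1, while Atp2b1, Lurap1l, Vip and Hapln1 fell, as described below.

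Of the 254 ends of the 127 WT domains that overlapped an R6/1 domain, 133 were trimmed in R6/1, 57 lay at the same bin in both lists and 64 reached further in R6/1. Shifts of 1 bin went both ways about equally often (31 ends trimmed, 28 extended), and so did shifts of 2 bins (13 and 13). Long shifts were mostly trims: 52 ends were trimmed by at least 10 bins and 7 were extended by as much, and 26 were trimmed by at least 1 Mb against 3 extended. The median trim was 185 kb (quartiles 74 and 666 kb), and the 52 long ends held 2013 of the 2259 bins (89.1%). All extensions together came to 10.9 Mb, and the longest was 1.89 Mb.

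**Figure D1:**
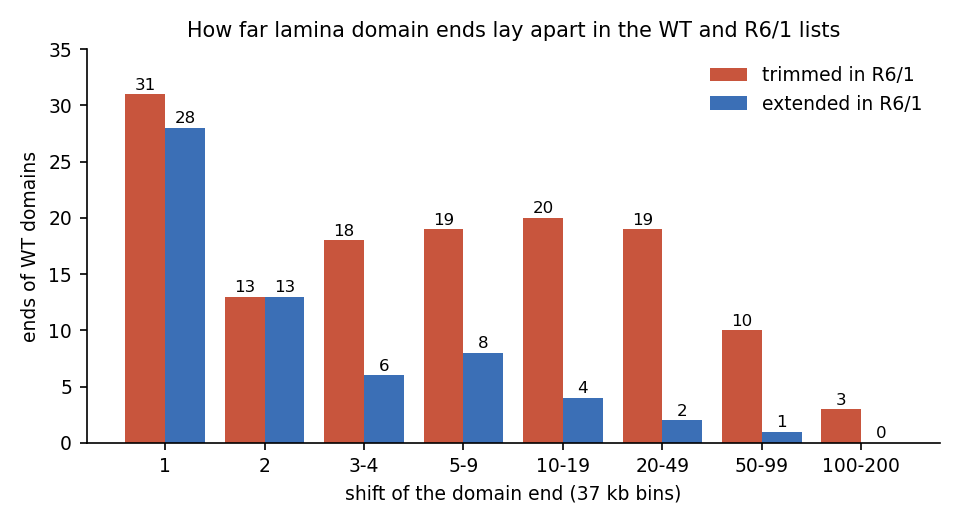
Number of WT domain ends (vertical axis) by the size of the shift between the WT and R6/1 lists in bins of 37 kb (horizontal axis), with trims and extensions side by side; 2 extensions shorter than 3 bins that were no whole number of bins are not drawn. Shifts of 1 or 2 bins occur 44 times as trims and 41 times as extensions, while shifts of at least 10 bins occur 52 and 7 times.

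Trimming touched 98 of the 127 domains, 35 at both ends and 63 at 1 end, and 4 domains lost more than 50% of their length to it. The trimmed share of WT domain length ran from 1.6% on chromosome 9 to 18.5% on chromosome 10, and chromosome 3 held the most trimmed sequence, 15.8 Mb. Trims at the lower-coordinate end of a domain (66 ends, 52.1 Mb) and at the higher-coordinate end (67 ends, 31.4 Mb) were similar in number. In 3 trimmed ends, on chromosomes 6, 9 and 13, the WT domain began near the first assembled bases of the chromosome, so that their flanks are mostly unassembled. The authors' domain score had a median of 14.4 in the WT domains that were trimmed and 11.7 in those that were not. The trimmed domains were also longer, with a median of 5.0 Mb against 3.33 Mb. Scores were lower in R6/1 also at domains with equal borders in both lists, such as chr16:65305001-89762000 (69.8 and 26.3) and chr2:36112001-37222000 (5.0 and 4.5). The extended domain chr7:33855001-34891000 went the other way (4.7 and 5.8). How far length or lower R6/1 scores bear on the trims was not tested.

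Base composition, which the choice did not use, was intermediate in the trimmed ends. They had 39.83% GC, against 38.25% in kept sequence just inside the R6/1 border and 42.86% in flanks just outside the WT border. Kept sequence and flanks were as long as the trimmed end they border, except that 4 kept neighbours and 4 flanks of long ends were shorter (2138 kept and 2136 flank bins in all), among them those of the longest end, with 56 kept and 62 flank bins for 148 trimmed bins. End by end, GC was above that of the kept neighbour in 115 of 133 ends and below that of the flank in 112, and it lay between both in 98. For the 52 long ends the counts were 51, 46 and 45. These ends also held 7.14 CpG per kb, against 5.67 in kept sequence and 9.9 in flanks. Letters from the core of the CTCF motif (CAGNNGGCG, both strands) occurred 21.5 times per Mb, against 18.3 in kept sequence, 34.7 in flanks and 30.9 over all autosomal bins, and were present in 51.9% of trimmed bins and 58.7% of all autosomal bins. A GA repeat (GAGAGAGA, both strands) occurred 1157.3 times per Mb, against 1057.6 in kept sequence, 1128.2 in flanks and 1140.8 over all autosomal bins. It was present in 99.3% of trimmed bins, 99.2% of kept bins and 96.5% of all autosomal bins. For both motifs, the shares of all autosomal bins count unassembled sequence too (2393.7 of 2472.3 Mb were sequenced). Such matches describe letters in the sequence, and binding was not measured here.

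The trimmed ends held 717 annotated gene starts, 409 of them protein-coding, or 8.58 starts per Mb. The kept neighbours held 6.41 per Mb and the flanks 17.52 per Mb. A single flank on chromosome 7 held 148 starts, 2 of them protein-coding. Protein-coding starts were 4.89 per Mb in trimmed ends, 3.15 in kept sequence and 9.97 in flanks. End by end, starts per bin were above those of the kept neighbour in 60 of 133 ends and below those of the flank in 70. RPKM were deposited for 405 of the genes starting in trimmed ends. Of the 405, 252 (62.2%, 95% Wilson interval 57.4 to 66.8) reached a mean of 0.5 RPKM, the level required for testing. In kept sequence 82 of 214 genes did (38.3%, 32.1 to 45.0), in all sequence shared by both lists 981 of 2995 (32.8%), and in flanks 453 of 699 (64.8%, 61.2 to 68.3). Over all autosomal bins 13364 of 21028 genes did (63.6%), a share close to that of the trimmed ends. The share was 68.0% in WT domains without an R6/1 domain and 74.7% in gaps between R6/1 domains of a WT domain. Genes are not replicates, and the intervals cover counting error only. Of the 153 genes under that level, 40 had no read in any library. These genes were detected in both genotypes: between 249 and 257 of the 405 reached 0.5 RPKM in a WT library (median 254), and between 247 and 253 in an R6/1 library (median 250).

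At the R6/1 border of trimmed ends, fewer genes inside than outside reached the level for testing. In the 52 long ends, the first trimmed bin outside that border held 23 genes with values, and 19 of them reached 0.5 RPKM. The first 2 trimmed bins held 38 genes with values, from 26 of the ends, and 31 of them reached it. The first 2 kept bins inside the border held 13, from 9 of the ends, and none did. The highest of these 13, Tubal3, a tubulin, had a mean of 0.08 RPKM. Further in, kept bins 3 to 10 each held 0 to 4 genes at that level. Across all 133 ends the first trimmed bin held 39 such genes of 57, and the first kept bin 4 of 21. At the 57 ends with the same border in both lists, the step was of the same kind, with 17 of 26 genes outside and 1 of 12 inside. At ends extended in R6/1 the counts were 12 of 22 outside and 2 of 23 inside the WT border, and 28 of 38 outside and 10 of 19 inside the R6/1 border. At the WT border of the long ends, by contrast, the first bin outside held 9 of 17 and the first bin inside 5 of 10. No test of these counts was made, and they describe the mean of both genotypes. Counted in WT alone, 32 of 38 genes in the 2 bins outside the R6/1 border of long ends reached 0.5 RPKM. In the 2 bins inside it, 0 of 13 did.

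**Figure D2:**
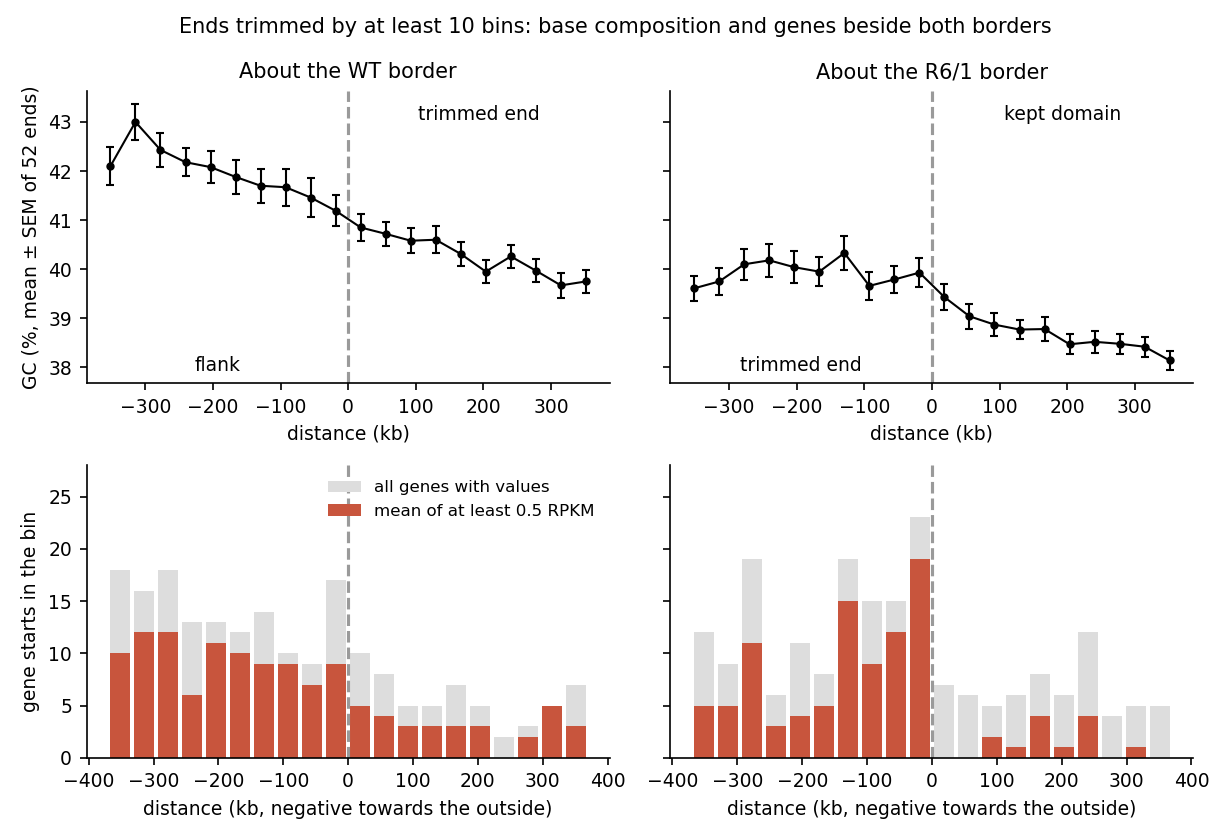
Mean GC content with the standard error over the 52 ends trimmed by at least 10 bins (upper panels) and the number of gene starts with values, with those at a mean of 0.5 RPKM or more in red (lower panels), by distance in kb from the WT border (left) and the R6/1 border (right), negative distances lying towards the outside of the domain. GC falls from the flank into the kept domain, and the red bars drop from 19 to 0 at the R6/1 border, while at the WT border they go from 9 to 5.

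Several single borders showed the step. On chromosome 6, Gabarapl1 (chr6:129483218-129492349), an Atg8-family protein of autophagosome membranes, started in the first trimmed bin and had a mean of 298 RPKM in WT and 344 RPKM in R6/1, and the lymphocyte receptor genes Klre1, Klrd1 and Klrk1 in the next kept bins had at most 0.115 RPKM in either genotype. On chromosome 13, Net1 had 9.05 and 6.46 RPKM in the first trimmed bin, and its kept neighbours Tubal3 and Ucn3, a neuropeptide, had at most 0.0881 RPKM. On chromosome 1, the replication factor Mcm3 had 1.17 and 1.1 RPKM, and the cytokine genes Il17a and Il17f inside the border had at most 0.0417 RPKM. Among the exceptions outside the border were Tchhl1, with no read in any library, and Myl1, a muscle myosin light chain, with 0.666 and 0.195 RPKM. Gabarapl1 and Mcm3 read towards the kept domain and Net1 away from it. Of all tested genes starting in trimmed ends, 120 read outwards and 132 towards the domain.

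RNA from trimmed-end genes moved in both directions, at shares close to those of all tested genes. Of the 252 tested genes, 53 rose in R6/1 (21.0%) and 51 fell (20.2%), against 24.8% higher and 23.5% lower among all 14446 genes tested (limma on log2(RPKM + 0.5), adjusted p under 0.05). Their median log2 fold change was -0.03, and that of all tested genes was 0.00; both were above 0 under quantile normalization (0.01 and 0.03) and with libraries scaled by their own total of reads (0.04 and 0.07), where 82 members (32.5%) were called higher and 42 (16.7%) lower, against 35.4% and 17.5% of all genes then tested. In kept sequence 22 of 82 tested genes rose and 21 fell, and in flanks 110 of 453 rose and 97 fell. Libraries of the 2 genotypes did not overlap at 10 higher and 16 lower trimmed-end genes (4.0% and 6.3%), against 5.5% and 6.38% of all genes tested. The median level of the 252 genes was 6.00 to 6.56 RPKM in the WT libraries and 5.99 to 6.59 RPKM in the R6/1 libraries, so the ranges overlapped. Without the 4 WT and 5 R6/1 libraries that had over 300 RPKM of choroid plexus markers, a choice made after seeing the data, 30 members were higher (11.9%) and 37 lower (14.7%), against 16.3% and 17.0% of all 14451 genes then tested.

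Most changes were small. Of the 104 called genes, 84 changed by less than 0.5 on the log2 scale. Of the other 20, 19 fell and 1 rose, and among all 6980 called genes 907 fell and 298 rose by as much. Changes of at least 1 were found in 4 members, which fell, and in 127 falls and 58 rises among all called genes. Fold changes are on the log2(RPKM + 0.5) scale, which understates changes of low genes, and a value after ± is the standard error.

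**Figure D3:**
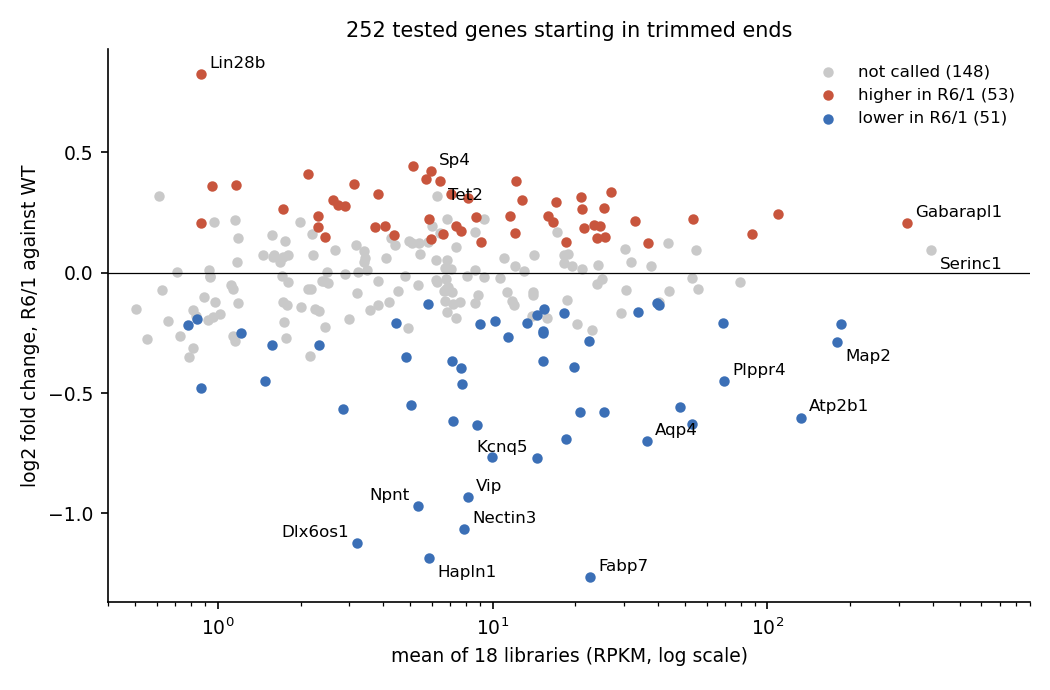
Log2 fold change of R6/1 against WT (vertical axis) by mean level in RPKM on a log scale (horizontal axis) for the 252 tested genes that start in trimmed ends, 1 point per gene, red for called higher, blue for called lower and grey for not called. All but 1 of the red points lie under 0.5, while blue points reach -1.26.

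Of the 8 largest falls (mean level 1 RPKM or more), 5 showed no overlap between genotypes. Fabp7 (chr10:57504687-57508256, plus strand), a fatty acid binding protein of astrocytes and their precursors, had a lowest, median and highest level of 19.5, 28.9 and 48.9 RPKM in WT and 7.38, 11.6 and 21.9 RPKM in R6/1. Its log2 fold change was -1.26 ± 0.18 (SE; limma adjusted p = 1.18e-05), with an overlap between the lowest WT and the highest R6/1 library. Hapln1 (chr13:89680241-89751437, plus strand), the link protein that holds perineuronal nets together, had 7.62, 8.26 and 9.43 RPKM in WT and 2.39, 3.12 and 4.31 RPKM in R6/1. All 9 R6/1 libraries lay below all 9 WT libraries, and the log2 fold change was -1.19 ± 0.09 (limma adjusted p = 1.66e-09). Dlx6os1 (chr6:6770189-6819533, minus strand), a non-coding RNA from the Dlx5 and Dlx6 locus of interneuron development, had 3.49, 4.43 and 5.81 RPKM in WT and 1.51, 1.81 and 2.06 RPKM in R6/1, without overlap, a change of -1.12 ± 0.08 (limma adjusted p = 1.16e-09). It overlaps Dlx6 on the opposite strand, and whether reads were counted by strand is not stated, so the reads of the pair cannot be told apart. Dlx6 itself fell by 0.30 (limma adjusted p = 0.0136) with overlapping libraries, and Dlx5, its neighbour, had a log2 fold change of -0.04 that did not pass the test (adjusted p = 0.8).

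Nectin3 (annotated as Pvrl3, chr16:46387819-46498638, minus strand), an adhesion protein of cell junctions and synapses, had a lowest, median and highest level of 7.77, 10.0 and 17.1 RPKM in WT and 3.79, 4.95 and 5.78 RPKM in R6/1. The genotypes did not overlap, and the log2 fold change was -1.07 ± 0.12 (limma adjusted p = 8.54e-07). Npnt (chr3:132544709-132613255, minus strand), which encodes the matrix protein nephronectin, had 5.79, 6.70 and 9.47 RPKM in WT and 2.85, 3.45 and 4.61 RPKM in R6/1, also without overlap (-0.97 ± 0.10, limma adjusted p = 9.41e-08). Kcnq5 (chr1:21388484-21952023, minus strand), a potassium channel subunit of the M-current that limits neuronal firing, ran from 14.7 through 17.2 to 25.5 RPKM in WT and from 8.99 through 10.5 to 11.5 RPKM in R6/1, without overlap (-0.77 ± 0.09, limma adjusted p = 7.67e-07). Lurap1l (annotated as D4Bwg0951e, chr4:80556550-80601532, plus strand) had 8.89, 12.8 and 17.5 RPKM in WT and 5.92, 6.67 and 8.96 RPKM in R6/1. Its highest R6/1 library was above its lowest WT library, and its log2 fold change was -0.77 ± 0.10 (limma adjusted p = 4.64e-06).

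Vip and Aqp4 were the trimmed-end members of the cell type lists. Vip (chr10:4698927-4707323, minus strand), the neuropeptide of a class of interneurons, started in an end trimmed by a single bin, a size of shift that also occurred 28 times as an extension, and its gene body crossed the R6/1 border. It had 6.20, 10.4 and 15.3 RPKM in WT and 4.09, 5.76 and 6.76 RPKM in R6/1. The lowest WT library lay within the R6/1 range, and the log2 fold change was -0.93 ± 0.13 (limma adjusted p = 7.91e-06). The inhibitory neuron markers fell at 6 of 7 genes, Vip included, with summed levels of 387.1 to 484.4 RPKM in WT and 232.0 to 297.4 RPKM in R6/1. Aqp4 (chr18:15547903-15562193, minus strand), the water channel of astrocyte endfeet, had 35.1, 46.1 and 52.9 RPKM in WT and 20.8, 24.3 and 47.7 RPKM in R6/1. A single R6/1 library reached into the WT range, and Aqp4 changed by -0.70 ± 0.12 (limma adjusted p = 0.000106), a call that was lost without the libraries rich in choroid plexus markers (adjusted p = 0.108). All 5 astrocyte markers fell (3 without those libraries), with summed levels of 427.8 to 597.8 RPKM in WT and 316.7 to 462.6 RPKM in R6/1. Of all tested genes 23.5% fell, and 17.0% did without those libraries. No listed marker was at 0 in any library, and the part of cell type composition in the changes of Vip, Aqp4 and Fabp7 was not tested.

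**Figure D4:**
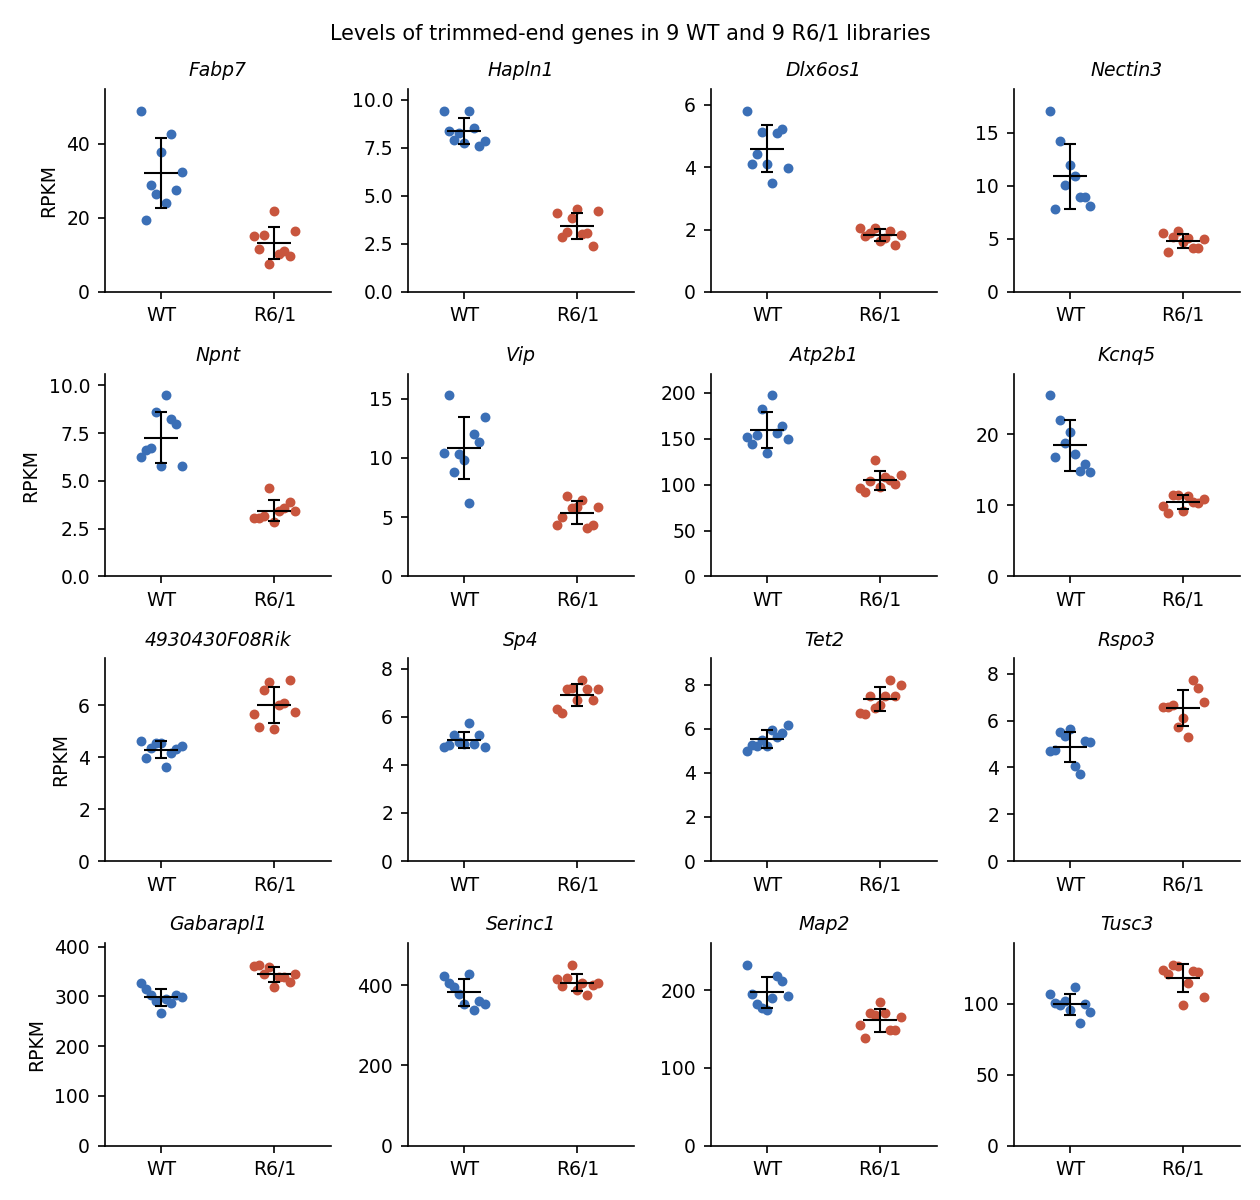
Level in RPKM (vertical axis, from 0) of 16 trimmed-end genes in 9 WT (blue) and 9 R6/1 (red) libraries, 1 point per library, with the mean and standard deviation as black bars. Hapln1, Dlx6os1, Nectin3, Npnt, Atp2b1 and Kcnq5 show no overlap with lower R6/1 levels, and 4930430F08Rik, Sp4 and Tet2 show none with higher R6/1 levels.

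The 8 largest rises (mean level 1 RPKM or more) were of 0.36 to 0.44 on the log2 scale. Sp4 (chr12:119473406-119539913, minus strand), a zinc finger transcription factor of neurons, had a lowest, median and highest level of 4.74, 4.86 and 5.75 RPKM in WT and 6.16, 7.13 and 7.53 RPKM in R6/1. All R6/1 libraries lay above all WT libraries (log2 fold change 0.42 ± 0.05, limma adjusted p = 3.87e-07). Tet2 (chr3:133126643-133207354, minus strand), an enzyme that oxidizes 5-methylcytosine, had 4.98, 5.49 and 6.17 RPKM in WT and 6.68, 7.49 and 8.21 RPKM in R6/1. Its libraries did not overlap either (0.38 ± 0.05, limma adjusted p = 3.11e-06), and it started 29.6 kb from the R6/1 border. The gene 4930430F08Rik (chr10:100034908-100051893, minus strand) rose from 3.60, 4.36 and 4.62 RPKM to 5.08, 5.99 and 6.96 RPKM, also without overlap (0.44 ± 0.06, limma adjusted p = 8.09e-06), and it overlaps Cep290 on the other strand.

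Rspo3 (chr10:29172915-29255673, minus strand), a secreted enhancer of Wnt signalling, had 3.74, 5.09 and 5.65 RPKM in WT and 5.29, 6.60 and 7.74 RPKM in R6/1. The ranges overlapped slightly, and the log2 fold change was 0.39 ± 0.08 (limma adjusted p = 0.000318). Frzb, a secreted Wnt inhibitor, changed by 0.38 ± 0.14 (limma adjusted p = 0.0276) with broad overlap, and the call was lost without WT library 2, 7 or 9 or R6/1 library 4 or 6. Popdc3, a cAMP-binding membrane protein, changed by 0.37 ± 0.15 (limma adjusted p = 0.0458), and its call was lost in 14 of 18 fits that left out a library; it held only without WT library 1 or 4 or R6/1 library 7 or 8, and the adjusted p reached 0.0926. Chst9, a sulfotransferase, rose by 0.41 ± 0.11 (limma adjusted p = 0.00336) and Slc25a13, the mitochondrial aspartate and glutamate carrier citrin, by 0.36 ± 0.10 (limma adjusted p = 0.00358), both with overlapping libraries, and the call of Slc25a13 was lost without the libraries rich in choroid plexus markers (adjusted p = 0.184). Lin28b, an RNA-binding protein that blocks let-7 maturation, fell outside the rule for naming because of its low level and is named after its values were seen. It had the largest rise, from 0.291, 0.505 and 0.756 RPKM to 0.796, 1.25 and 1.59 RPKM, without overlap (log2 fold change 0.82 ± 0.10, limma adjusted p = 2.22e-06).

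Of the 6 most abundant trimmed-end genes, 2 rose, 3 fell and 1 did not pass the test. Serinc1, of the serine incorporator family, had the highest mean and did not pass the test, with 338.1, 377.3 and 429.0 RPKM in WT and 375.1, 406.1 and 451.4 RPKM in R6/1 (log2 fold change 0.09 ± 0.05, limma adjusted p = 0.118). Under quantile normalization and under each library's own total of reads it was called higher. Gabarapl1 rose by 0.21 ± 0.04 (limma adjusted p = 0.000154) and Tusc3, a subunit of the oligosaccharyltransferase, by 0.24 ± 0.05 (limma adjusted p = 0.000675), the latter without a call when the libraries rich in choroid plexus markers were left out (adjusted p = 0.0553). Nckap1, of the complex that drives actin branching, fell by 0.21 ± 0.05 (limma adjusted p = 0.00122) and Map2, the microtubule protein of dendrites, by 0.29 ± 0.06 (limma adjusted p = 0.000559). Atp2b1 (chr10:98377786-98488777, plus strand), a calcium pump of the plasma membrane, changed most among these, from 134.3, 153.9 and 197.2 RPKM in WT to 91.9, 103.4 and 126.5 RPKM in R6/1. Its genotypes did not overlap (-0.60 ± 0.07, limma adjusted p = 4.42e-07).

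The 5 longest ends held 548 bins (24.3% of all trimmed bins), and RNA changed in both directions in 4 of them. Counts of calls in single ends are read beside the shares of all tested genes, 24.8% higher and 23.5% lower. Without the libraries rich in choroid plexus markers, those shares were 16.3% and 17.0%. In that fit the higher calls in the 3 longest ends went from 5 to 2, from 4 to 1 and from 2 to 2. Higher calls in the chromosome 13 end went from 5 to 1, and lower calls in the longest chromosome 10 end from 4 to 2. The longest, chr3:115329001-120805000 (5.48 Mb), held 22 tested genes, of which 5 rose and 6 fell. The falls included S1pr1, a sphingosine 1-phosphate receptor (63.7 to 40.7 RPKM by medians, log2 fold change -0.63 ± 0.07, no overlap), Vcam1, an adhesion protein (-0.63 ± 0.09), and Plppr4, a phospholipid phosphatase-related protein of glutamatergic synapses (75.4 to 56.3 RPKM, -0.45). The rises were of 0.12 to 0.27 and included Ptbp2, the neuronal splicing regulator (0.12), and Rtca, an RNA cyclase (0.27). In chr6:3034001-6956000 (3.92 Mb), 4 of 19 tested genes rose and 3 fell, among them Dync1i1, an intermediate chain of dynein (48.4 to 58.0 RPKM, 0.22, no overlap), and Ppp1r9a, the synaptic scaffold neurabin (-0.17). The imprinted genes Peg10 and Sgce of that end did not pass the test (0.09 and -0.08).

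In chr10:96385001-100085000 (3.70 Mb), 2 of 13 tested genes rose and 4 fell. Dusp6, a phosphatase of ERK kinases, went from a median of 22.8 to 13.5 RPKM without overlap (log2 fold change -0.69 ± 0.07, limma adjusted p = 1.43e-07), and the fall of Lum, a proteoglycan of connective tissue, was -0.57. In chr13:74777001-78403000 (3.63 Mb), 5 of 17 tested genes rose and 0 fell, with changes of 0.15 for Glrx, a glutaredoxin, and up to 0.30. Nr2f1, a transcription factor in the same end, stayed at medians of 20.7 and 20.7 RPKM (log2 fold change 0.01, adjusted p = 0.81). In chr10:25752001-29304000 (3.55 Mb), 3 of 10 rose and 1 fell. Its most abundant gene, 9330159F19Rik, rose by 0.31 (limma adjusted p = 0.00046), which was not called without the libraries rich in choroid plexus markers (adjusted p = 0.0736), and Ptprk, a receptor phosphatase of cell contacts, fell by 0.20.

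**Figure D5:**
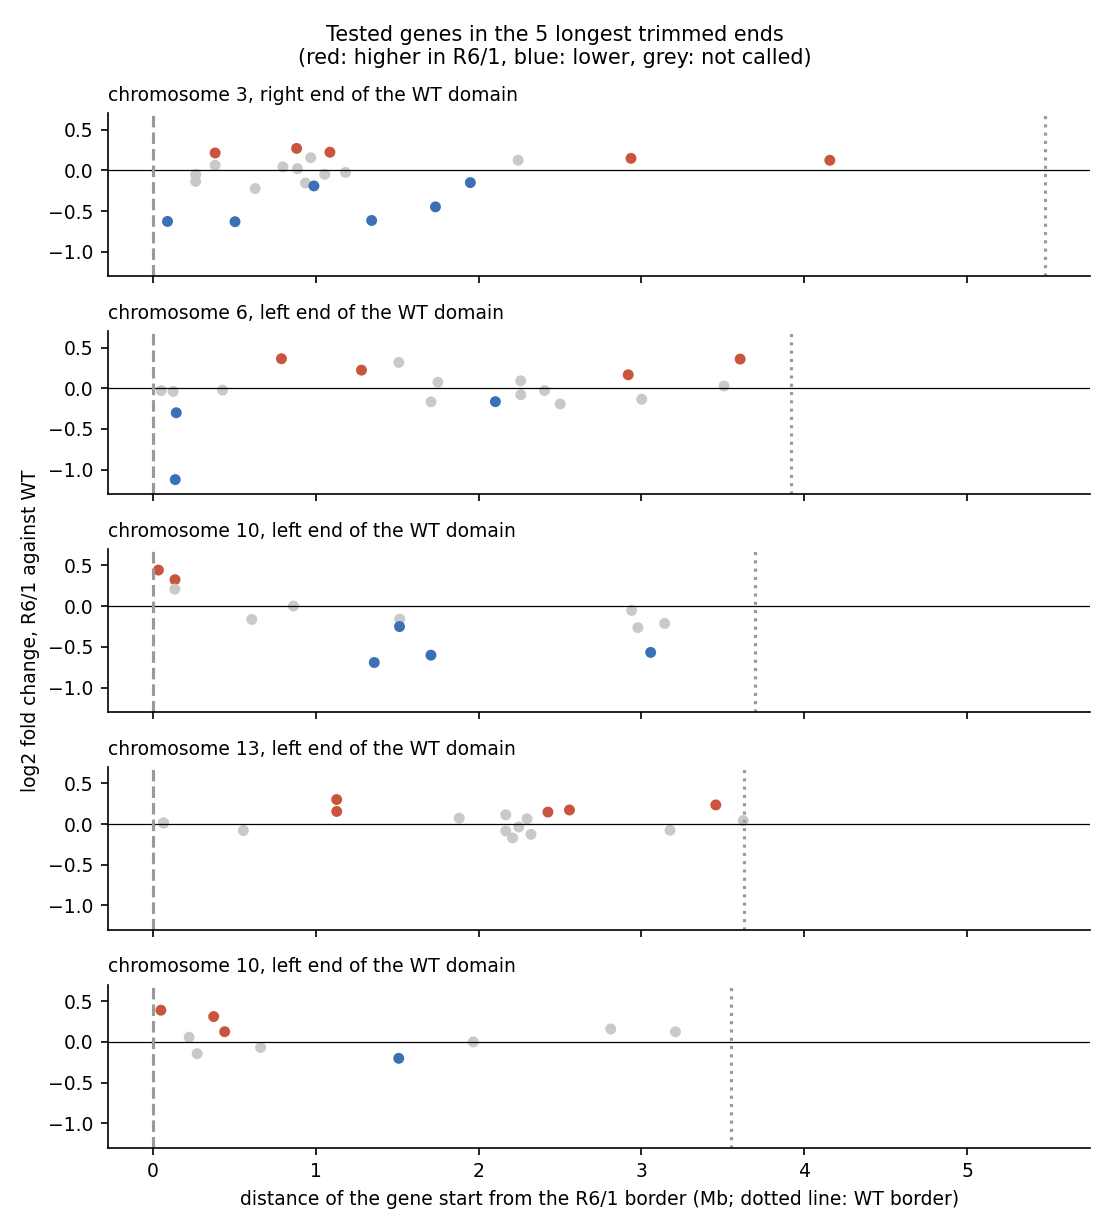
Log2 fold change of R6/1 against WT (vertical axis) for each tested gene by the distance in Mb of its start from the R6/1 border (horizontal axis, dashed line at 0, dotted line at the WT border) in the 5 longest trimmed ends, red for higher, blue for lower and grey for not called. Red and blue points are interspersed along the chromosome 3 end, and the chromosome 13 end has 5 red points and no blue one.

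Over all trimmed ends with at least 4 tested genes, the median log2 fold change was above 0 in 8 and below 0 in 14 (range -0.24 to 0.22). Calls in both directions were held by 12 of the 22, where 24.8% of all tested genes rose and 23.5% fell. The medians of single ends were taken from the main fit only, and whether their signs hold in other fits was not tested. Over all members, the median went from -0.027 to 0.037 with libraries scaled by their own total of reads. It ran from -0.036 to -0.018 when 1 library was left out. Near the R6/1 border (within 100 kb), 17 of 66 tested genes rose and 10 fell, and further away 36 of 186 rose and 41 fell; the difference was not tested. The longest trimmed end with no gene start was chr6:46768001-47064000 (0.30 Mb), and 35 of the 133 ends held none.

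Of all 30598 annotated autosomal genes other than pseudogenes, 603 (1.97%) started in trimmed ends, and the shares of single families are read beside this. There were 17 olfactory receptor genes (1.53% of 1111, against 849 in shared sequence), and none reached the level for testing. Zinc finger genes named Zfp numbered 12 (3.26% of 368), of which 10 were tested, 2 rose and 1 fell. Of the cadherins, Cdh2 had a log2 fold change of 0.04 that did not pass the test and Cdh11 fell by 0.39 without overlap, while the receptor subunits Gabrb1 (-0.19, adjusted p = 0.096) and Grin3a (-0.08, adjusted p = 0.374) did not pass it. No vomeronasal receptor, ribosomal protein, histone or keratin gene of these name groups started in a trimmed end.

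Promoter CpG content and gene length, which the choice of bins did not use, are given beside those of all tested genes. In the NCBIM37 genome, 61.9% of the 252 tested members had at least 10 CpG in the 300 bases around the annotated start, against 76.4% of all tested autosomal genes, and 11.1% of the 153 members below the level for testing did. Members that rose had at least 10 CpG in 41 of 53 cases (77.4%) and members that fell in 23 of 51 (45.1%); over all autosomal genes the shares were 84.0% of 3336 that rose and 72.6% of 3189 that fell. Tested members had a median gene length of 44.1 kb, against 23.3 kb for all tested autosomal genes, 39.9 kb in kept sequence and 27.4 kb in flanks. Genes longer than 100 kb made up 28.2% of them, against 14.4% of all tested autosomal genes, 32.9% in kept sequence and 17.0% in flanks. These values describe the genes; no difference among them was tested.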

How the data were processed

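Hippocampal RNA (9 WT and 9 R6/1 libraries) and lamin B1 domains (1 list per genotype) were analysed; ATAC-seq and ChIP reads were not analysed here. Per the submitters' processing notes, Bowtie was used for ChIP-seq, TopHat and DESeq2 for RNA-seq, with build mm9; the counter, the annotation and the settings of the domain caller EDD, named in the deposited files, are not given in the sources used here. The authors deposited RPKM for 24508 symbols. To recover reads, each gene's RPKM were multiplied by its mean normalized signal in the authors' table over its mean RPKM. The products are whole reads times 1 step per library for 99.66% to 99.77% of values below 60 reads (tolerance 0.05 of a read). The reads per library were recovered from them. The factor used for depth is not given in the sources used here. The authors' deposited table gives a mean normalized signal, a log2 fold change and an adjusted p-value per gene, and the deposited domain lists give a score per domain, per the file headers and values. 

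Bins were taken on the 37 kb grid of NCBIM37, the same assembly as mm9, with GENCODE vM1 genes, to which 22047 symbols (90.0%) were matched, 1715 of them by synonym. The test took genes whose mean over all libraries reached 0.5 RPKM, on log2(RPKM + 0.5) by limma 3.58.1 (lmFit, eBayes with trend, R 4.3.3), two-sided, with Benjamini-Hochberg adjustment over 14446 genes and a threshold of 0.05. The p-values weigh the difference between genotypes against the spread between libraries of the same genotype. Intervals on shares are Wilson intervals at 95%. The limma step was tested on simulated data and the bin rule on made intervals. Named genes are, among starts in trimmed ends, the 8 largest called rises and falls at a mean of at least 1 RPKM, the 6 most abundant, the most abundant in each of the 5 longest ends, and members of the marker lists. The members, lists and rules were chosen with earlier results of these data known. Python 3.11.15, pandas 2.3.3, pysam 0.24.0 and samtools 1.23.1 were used. The alternatives were other pseudocounts, filters, scalings, a replicate block, limma without trend and leaving out each library. They also included other readings of ends and of their genes, the authors' deposited table and leaving out libraries rich in choroid plexus markers.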

Additional observations from a re-analysis of the deposited data

Results flagged for a closer look

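In 5 of the 54 sets of 9 libraries (27 named genes in each genotype), 1 library stood apart from the others, with a gap to its neighbour above the 95% critical share of 0.493 of the whole range (Dixon's test, by which chance alone marks about 1 in 20 sets). In WT, library 6 was high for Sp4 at 5.75 RPKM (next 5.24) and for Plppr4 at 108 RPKM (next 85.9). WT library 1 was high for Popdc3 at 5.52 RPKM (next 3.19), and WT library 5 for Slc25a13 at 1.18 RPKM (next 1.01). In R6/1, library 5 was high for Aqp4 at 47.7 RPKM (next 33.0). The cause was not tested.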

How the results depend on the processing

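The 53 higher and 51 lower calls stayed within 1.5 times under 13 of 15 and 15 of 15 alternatives. Each library's own total of reads gave 82 higher genes (32.5%, against 35.4% of all genes) and a median log2 fold change of 0.037 in place of -0.027 (0.069 and 0.004 over all genes), and leaving out the libraries over 300 RPKM of choroid plexus markers, added after seeing the data, gave 30 higher genes from 5 WT and 4 R6/1 libraries; how far the smaller number of libraries accounts for this was not tested. Leaving out 1 library gave 46 to 54 higher genes, 48 to 55 lower genes and a median of -0.036 to -0.018. Same-numbered libraries did not pair (r of deviations -0.053 to 0.237, 3 of 9 over 0.1, 2 of 9 WT libraries closest to their own number); with the replicate block 55 genes were higher and 52 lower, with a median of -0.027. The median was also above 0 under quantile normalization (0.008).

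The number of trimmed bins ran from 1904 to 2576. The trimmed share of WT length was 7.46% for WT domains with at least 50% of their length in R6/1 domains and 9.97% without the bottom quartile of domains by score. That last choice also moved gene starts to 9.92 per Mb, the share of genes at 0.5 RPKM to 55.7% and GC to 39.84%. GC was 39.81% both with sex chromosomes and for ends of at least 2 bins. Gene starts were 9.31 per Mb with sex chromosomes and 4.89 per Mb for protein-coding genes, and 56.0% of genes reached 1 RPKM. For 27 named genes, 782 values under alternatives were compared with the main fit, those of the authors' deposited table included. Of these, 754 kept their side of the threshold, 26 lost it, 2 gained it and 0 reversed. With 1 domain list per genotype, the error of a border is unknown, and at 12299434 to 16736544 reads per library, levels under 0.5 RPKM were not tested.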
